A study of Homo sapiens with 8 samples.

Results

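The mitochondrial genome of human cells encodes 37 genes, of which 13 are mRNAs, 2 are rRNAs and 22 are tRNAs. They were chosen here by symbol, as the genes that start with MT- in GENCODE release 29, and looked up among the 48162 gene identifiers of each count file. Counts were at hand for 13 of the 37, and all 13 were mRNAs. The 2 rRNAs and the 22 tRNAs are not analysed here, so a comparison by class was possible for the mRNAs alone. All 13 mRNAs passed the filter on low counts and were among the 14228 genes tested.

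The cells were HT-29, a line from a human colorectal adenocarcinoma. One group was unedited (WT, 4 libraries). The other (MIEN1_KO, 4 libraries) came from HT-29 cells electroporated with plasmids for Cas9 and for guides named 5' and 3' of MIEN1, selected with puromycin and grown from single cells. Each library pooled RNA from 4 culture dishes, RNA was selected on oligo-dT beads and cDNA was made with random hexamers. The sources used here do not give how many edited clones were used, and they describe neither selection nor cloning of the WT cells, so the edit, the selection and the cloning cannot be told apart in any difference below. MIEN1, a small protein linked to cell migration, had 522, 594, 471 and 493 counts in the WT libraries and 15, 19, 23 and 16 in the MIEN1_KO libraries (log2 fold change -4.75, SE 0.13).

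In human mitochondria, POLRMT transcribes each strand of the circular genome into a long precursor, and enzymes cut out the tRNAs that punctuate it to release the mRNAs and rRNAs. The mRNAs code for core subunits of complexes I, III and IV of the respiratory chain and of the ATP synthase (complex V), and all other subunits, the polymerase and the mitochondrial ribosomal proteins are made from nuclear genes. Most of the mRNAs receive a short poly-A tail in the organelle, which oligo-dT beads can capture, whereas the MT-ND6 transcript carries little or no tail. By complex, 7 of the mRNAs belong to complex I, 1 to complex III, 3 to complex IV and 2 to complex V.

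The genome is compact, and neighbouring mRNA genes overlap in 3 places. MT-ATP8 and MT-ND4L, whose groups did not overlap in level (as for 41.0% of all tested genes), both lie at such a place. So do MT-ATP6, MT-CO3 and MT-ND4, whose groups overlapped. The sequences of MT-ATP8 and MT-ND4L are shown. MT-ATP8 (GRCh38 chrM:8366-8572, plus strand, 207 bases) shares its last 46 bases with MT-ATP6 (chrM:8527-9207). MT-ND4L (chrM:10470-10766, plus strand, 297 bases) shares its last 7 bases with MT-ND4 (chrM:10760-12137). MT-ATP6 also shares its last base with MT-CO3. Each of the first 2 pairs is carried on a single RNA, and each gene is a single exon in GENCODE. Both short genes are printed whole, 5′ to 3′, with the bases shared with the neighbour in capitals.
MT-ATP8: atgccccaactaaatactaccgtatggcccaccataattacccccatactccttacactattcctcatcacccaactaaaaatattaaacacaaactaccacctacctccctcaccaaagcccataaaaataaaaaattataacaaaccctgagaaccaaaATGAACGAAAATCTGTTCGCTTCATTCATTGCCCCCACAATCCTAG
MT-ND4L: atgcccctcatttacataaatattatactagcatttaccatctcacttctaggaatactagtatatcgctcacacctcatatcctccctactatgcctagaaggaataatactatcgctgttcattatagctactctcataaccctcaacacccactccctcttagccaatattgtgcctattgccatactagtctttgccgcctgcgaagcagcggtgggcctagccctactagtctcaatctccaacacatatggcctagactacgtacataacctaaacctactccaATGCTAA
The capitals hold the start codon of the downstream gene and the stop codon of the upstream one. The sources used here do not say how reads that cover both genes of a pair were counted.

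The ends of the mRNAs differ in kind. In 5 mRNAs the annotated end is a whole stop codon (TAA or TAG), in 2 it is AGA or AGG, and in 6 it is only T or TA, which the poly-A tail completes to a stop codon. The last 24 bases of one gene of each kind are printed 5′ to 3′ on the gene's own strand, with the annotated end in capitals.
MT-ND5: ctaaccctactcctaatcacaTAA
MT-CO1: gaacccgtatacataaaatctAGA
MT-ND6: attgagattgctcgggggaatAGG
MT-ND1: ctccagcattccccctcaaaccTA
MT-ND4: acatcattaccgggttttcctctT
MT-ND5 lies at chrM:12337-14148, MT-CO1 at chrM:5904-7445, MT-ND1 at chrM:3307-4262 and MT-ND4 at the position above, all on the plus strand. MT-ND6 (chrM:14149-14673) is the only mRNA on the minus strand.

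The libraries held 21940903 to 25148790 counts. A chi-square test of the counts of 2 libraries, divided by its degrees of freedom, gave 2.38 to 6.86 for pairs of WT libraries and 3.26 to 12.2 for pairs of MIEN1_KO libraries other than replicate 4. Pairs with MIEN1_KO replicate 4 gave 27.2 to 30.9, so that library stood apart, and no pair looked like 1 library deposited again. Of 10 colon epithelial markers 9 were counted in every library, with a summed level of 11119 to 11649 CPM in WT and 13970 to 17659 CPM in MIEN1_KO. Fibroblast markers summed to at most 5.05 CPM and endothelial markers to at most 0.0926 CPM, with KDR at 0, and immune markers to 893 to 933 CPM in WT and 722 to 782 CPM in MIEN1_KO, nearly all of it LYZ. The part of these markers in the results was not tested.

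The mitochondrial mRNAs were among the most abundant RNAs of these cells. In WT they were 7 of the 20 genes with the highest CPM (counts scaled to a common library size with TMM factors), and MT-CO1 was the highest of all tested genes. Their summed share of all counts was 5.07, 5.60, 5.46 and 5.49% in the WT libraries and 4.78, 5.28, 4.77 and 4.80% in the MIEN1_KO libraries. The WT mean was 5.41% ± 0.229 (SD, n = 4) and the MIEN1_KO mean 4.91% ± 0.251 (SD, n = 4). MIEN1_KO replicates 1, 3 and 4 lay below every WT library, and MIEN1_KO replicate 2 lay above WT replicate 1, so the groups overlapped. The difference was -0.498 percentage points of the raw counts and -0.26 when each library's size was first scaled with its TMM factor. In bulk RNA a lower share cannot be told apart from more RNA of other genes, and fewer mitochondria cannot be told apart from less RNA in each.

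Grouped by complex, the mean share was lower in MIEN1_KO for all 4. Complex IV mRNAs took 2.65% ± 0.121 of all counts in WT and 2.35% ± 0.13 in MIEN1_KO. For complex I the shares were 1.74% ± 0.0654 and 1.61% ± 0.103, for complex III (MT-CYB alone) 0.507% ± 0.0222 and 0.478% ± 0.0164, and for complex V 0.506% ± 0.0255 and 0.477% ± 0.0225 (all SD, n = 4). The groups overlapped for each of the complexes. Within the mitochondrial mRNA counts, complex IV held 49.0% ± 0.219 in WT and 47.8% ± 0.955 in MIEN1_KO, where replicate 4 had 49.1%, and complex I held 32.2% ± 0.212 and 32.8% ± 0.884.

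**Figure D1:**
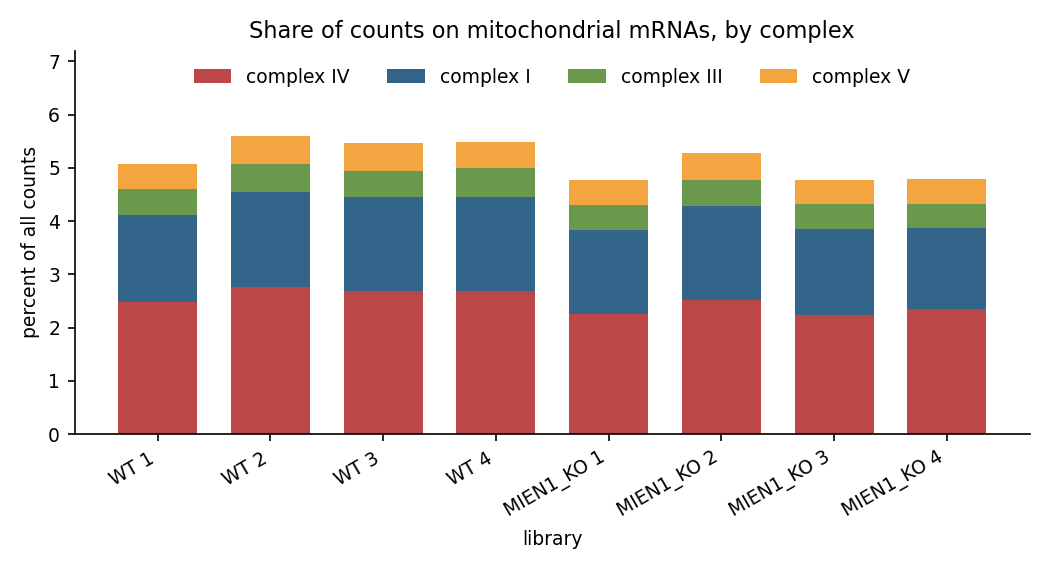
Share of all counts on the mitochondrial mRNAs in each of the 8 libraries, as percent of all counts, stacked by the complex each mRNA codes for. The WT bars reach 5.07 to 5.60% and the MIEN1_KO bars 4.77 to 5.28%, with complex IV the largest segment in every library.

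The groups were compared gene by gene with edgeR, as log2 fold changes of MIEN1_KO over WT. Of the 14228 genes tested, 41.7% had an adjusted p below 0.05, 2981 of them higher and 2952 lower in MIEN1_KO. Of the 13 mitochondrial mRNAs 0 rose, 1 (MT-ND4L) fell and 12 were not called, against 21.0% of all tested genes that rose and 20.7% that fell. At an unadjusted p below 0.05 the counts were 0 higher and 3 lower, beside 3507 higher (24.6%) and 3594 lower (25.3%) of all tested genes. The DESeq2 Wald test and limma-voom also called MT-ND4L alone. The groups did not overlap in CPM for 2 of the 13, MT-ND4L and MT-ATP8, beside 41.0% of all tested genes. Leaving out WT replicate 1, 2 or 3 left 0 called, without MIEN1_KO replicate 2 MT-ND3 and MT-ND4L were lower, and without MIEN1_KO replicate 4, the library that stood apart, MT-CO3, MT-ND3 and MT-ND4L were. Of all tested genes 32.5 to 36.8% were called without WT replicate 1, 2 or 3. Without MIEN1_KO replicate 2 20.7% of all tested genes were lower, and without MIEN1_KO replicate 4 21.5%. The median log2 fold change of the 13 was -0.05, beside -0.02 for all tested genes. The values ran from -0.30 for MT-ND4L to 0.05 for MT-ND2, and 12 of the 13 were below 0, beside 52.6% of all tested genes. That count depended on the scaling and on single libraries. With the trend of counts with GC content removed from each library, 1 of the 13 was below 0, with that trend removed and each library's level kept 3 were, and with upper-quartile factors 13 were. Without MIEN1_KO replicate 1 it was 7 of the 13 (median -0.0058), and without MIEN1_KO replicate 3 it was 8 (median -0.012). Without WT replicate 2, 3 or 4 it was 9, 11 and 10.

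**Figure D2:**
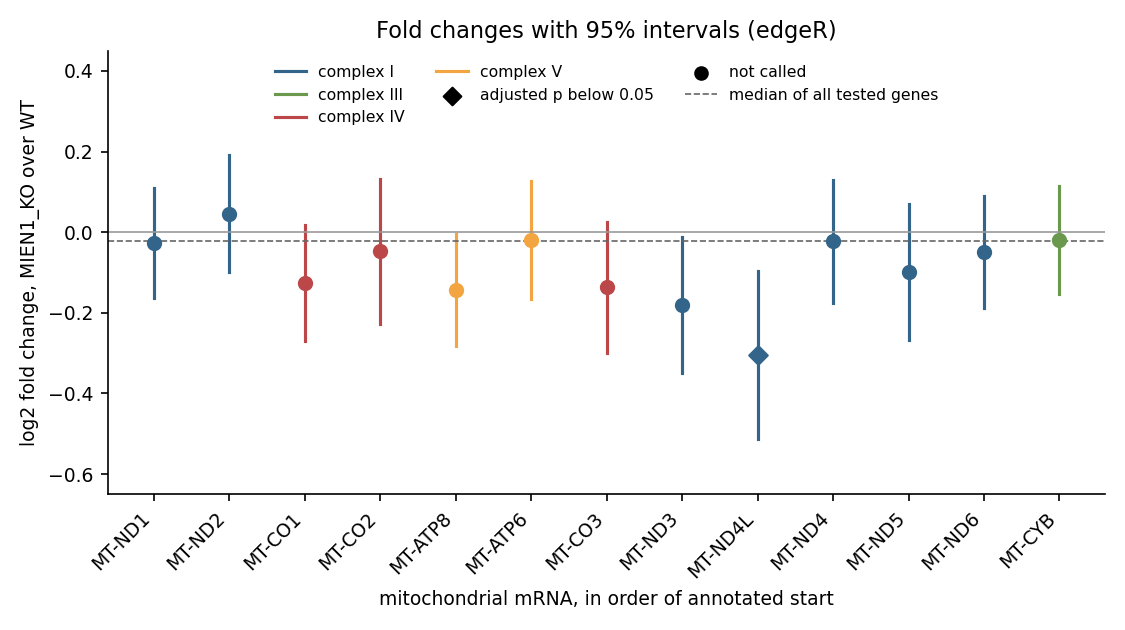
Log2 fold change of each mitochondrial mRNA, MIEN1_KO over WT, with its 95% interval from edgeR, in the order of annotated start and coloured by complex. Only the interval of MT-ND4L (diamond) belongs to an adjusted p below 0.05, and the intervals of MT-ATP8 and MT-ND3 also end below 0.

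GC content is given here because it moved with the fold changes of all genes. The mRNAs have 39.6% (MT-ATP8) to 47.7% (MT-ND1) G and C, below the median of 48.8% over the tested genes. Nuclear protein-coding genes whose longest transcript has over 40 and up to 48% G and C had a median log2 fold change of -0.12 (3861 genes), with 29.8% called lower and 6.01% higher. Those over 56% had a median of 0.28 and 52.7% called higher. Removing the trend raised the median log2 fold change of all genes by 0.104 and that of the mitochondrial mRNAs to 0.131, which was 0.0486 above the median of all genes. Then 5 mRNAs were higher, MT-ND2 (0.28), MT-ATP6 (0.20), MT-ND4 (0.20), MT-ND6 (0.19) and MT-CYB (0.16), and 0 lower, beside 4146 higher (29.1%) and 1951 lower (13.7%) of all tested genes in that fit. When the curve was centred so that each library kept its level, MT-ND2 alone was called (0.22, edgeR adjusted p = 0.0162), beside 36.6% of all tested genes. The part that GC content plays in the differences of the mitochondrial mRNAs was not tested.

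Complex I passes electrons from NADH to ubiquinone, and its 7 mitochondrial subunits form the membrane arm of the enzyme. MT-ND4L, one of the smallest of them, was the only mRNA called. Its counts were 10205, 10940, 10447 and 8430 in WT and 8810, 8726, 7571 and 5745 in MIEN1_KO. Scaled, these were 427.0, 426.0, 439.5 and 371.0 CPM in WT and 367.0, 363.8, 349.9 and 266.1 CPM in MIEN1_KO. WT replicate 4, the lowest of its group, lay just above MIEN1_KO replicate 1, so the groups did not overlap, and MIEN1_KO replicate 4 stood well below the other 3. Groups that do not overlap, with MIEN1_KO below, were found for 21.0% of all tested genes. The fold change was -0.30 on the log2 scale (SE 0.10, 95% interval -0.51 to -0.10, edgeR adjusted p = 0.0222), and the exact permutation test of log2 CPM gave the smallest p that 4 against 4 allows (0.0286, two-sided). Without WT replicate 1, 2 or 3 the edgeR adjusted p was 0.0645, 0.0711 and 0.0845. With the GC trend removed the fold change was -0.07 (edgeR adjusted p = 0.467), or -0.156 relative to the median of all genes in that fit. MT-ND4L was also not called when the GC trend was removed with each library's level kept. Without MIEN1_KO replicate 4 the fold change was -0.19 and still called.

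MT-ND4L and MT-ND4 share a transcript, and their counts were therefore set beside each other in the same library. MT-ND4, a proton-pumping subunit, had 5943, 6859, 6785 and 6877 CPM in WT and 6129, 6809, 6546 and 6561 CPM in MIEN1_KO. WT replicate 1 was the lowest of all 8 libraries, and the groups overlapped (log2 fold change -0.02, 95% interval -0.18 to 0.13). The MT-ND4L counts were 7.18, 6.21, 6.48 and 5.39% of those of MT-ND4 in WT and 5.99, 5.34, 5.35 and 4.06% in MIEN1_KO. The ratio was lower in MIEN1_KO on average and the groups overlapped, since WT replicate 4 fell below MIEN1_KO replicate 1. The difference in the log2 ratio was -0.29 (exact permutation test, two-sided, p = 0.0571, 0.171 when adjusted over the 3 ratios computed). These ratios were chosen after the values had been seen.

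**Figure D3:**
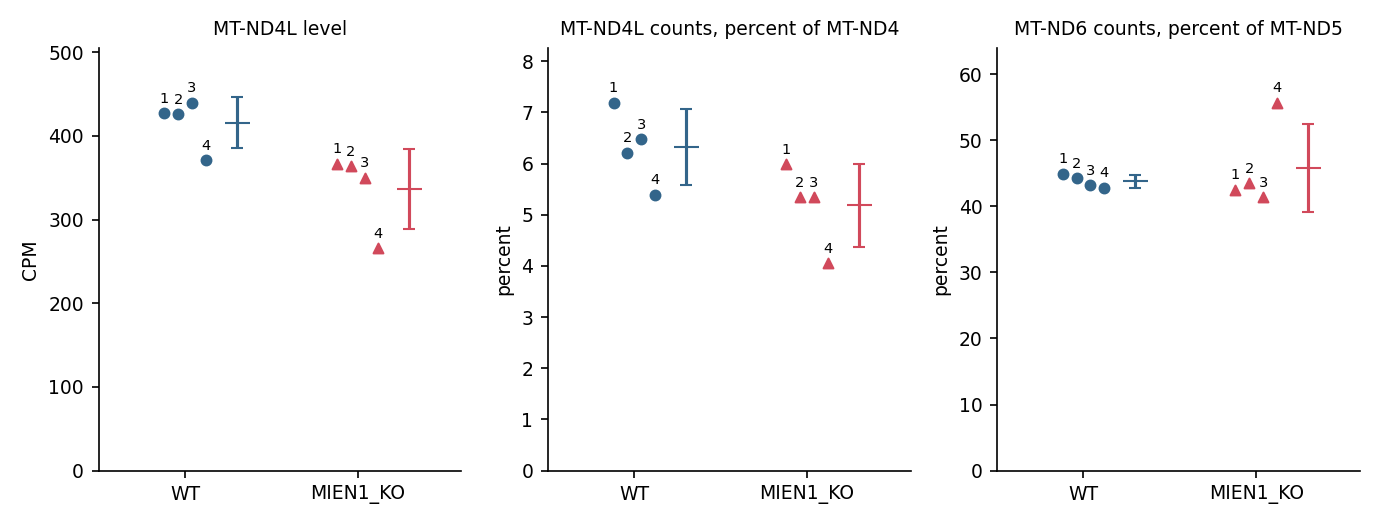
MT-ND4L level in CPM (left), MT-ND4L counts as percent of MT-ND4 counts (middle) and MT-ND6 counts as percent of MT-ND5 counts (right), with 1 numbered point per library and the mean ± SD of each group (n = 4). MIEN1_KO replicate 4 is the lowest library for the first and the second (266.1 CPM and 4.06%) and the highest for the third (55.6%).

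MT-ND3, whose loop lies near the ubiquinone site of complex I, was lower on average without passing the threshold. It had 1257, 1337, 1280 and 1190 CPM in WT and 1057, 1213, 986.4 and 1211 CPM in MIEN1_KO. Replicates 2 and 4 of MIEN1_KO lay inside the WT range and the other 2 below it. The log2 fold change was -0.18 (SE 0.08, edgeR adjusted p = 0.0796), and the adjusted p was below 0.05 when MIEN1_KO replicate 2 or 4 was left out.

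MT-ND1, next to the ubiquinone channel, had 2172 ± 59.1 CPM in WT and 2132 ± 100.1 CPM in MIEN1_KO. MT-ND2, another proton-pumping subunit, had 1966 ± 69.4 and 2029 ± 130.8 CPM (SD, n = 4). Their 95% intervals on the log2 scale ran from -0.16 to 0.11 and from -0.10 to 0.19 around a log2 fold change of -0.03 and 0.05. The share of MT-ND2 within the mitochondrial mRNA counts was 3.83, 3.72, 3.59 and 3.76% in WT and 4.01, 4.10, 3.94 and 4.09% in MIEN1_KO. Every MIEN1_KO library was above every WT library by this measure, beside 20.1% of all tested genes whose CPM was so ordered. No test was made of it, since a share rests on the other 12 mRNAs as well.

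MT-ND5 and MT-ND6 face each other on opposite strands. MT-ND5, the outermost pump of complex I, had 3079, 3188, 3242 and 3223 CPM in WT and 2975, 3282, 3096 and 2539 CPM in MIEN1_KO. The WT libraries were close together, and MIEN1_KO replicate 4 was far below all others (log2 fold change -0.10, SE 0.08, edgeR adjusted p = 0.339, and -0.0096 without that library). MT-ND6 had 1383, 1411, 1400 and 1380 CPM in WT and 1265, 1427, 1280 and 1413 CPM in MIEN1_KO. The strand setting is not given in the sources used here, and the MT-ND6 transcript carries little or no poly-A tail. Reads from RNA of the opposite strand may thus be among the MT-ND6 counts. MIEN1_KO replicate 4 was not low for MT-ND6 (log2 fold change -0.05, SE 0.06). MT-ND6 counts were 42.8 to 44.9% of MT-ND5 counts in WT, 41.4 to 43.5% in MIEN1_KO replicates 1 to 3 and 55.6% in replicate 4. The groups did not differ by this ratio beyond their spread (log2 difference 0.05, exact permutation p = 0.914), and without replicate 4 the difference was -0.045.

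Cytochrome c oxidase, complex IV, passes electrons to oxygen, and its 3 mitochondrial subunits hold the catalytic core. MT-CO1, which binds the haem a groups, had 12940, 14198, 13983 and 13998 CPM in WT and 12213, 13395, 12244 and 12667 CPM in MIEN1_KO. MIEN1_KO replicate 2 lay above WT replicate 1, and the other 3 lay below every WT library (log2 fold change -0.13, SE 0.07, edgeR adjusted p = 0.150). As a share of the mitochondrial mRNA counts it was 25.9 to 26.3% in WT and 24.5 to 25.4% in MIEN1_KO, a measure with no test. The groups did not overlap, beside 21.0% of all tested genes whose CPM was lower in MIEN1_KO without overlap. MIEN1_KO replicate 4 was at 24.5%, apart from the rest of its group at 25.3 to 25.4%. MT-CO2, which takes electrons from cytochrome c, had 5724, 6279, 5891 and 5956 CPM in WT and 5297, 5995, 5156 and 6630 CPM in MIEN1_KO. Replicate 4 was the highest of all 8 libraries here and replicate 3 the lowest, and the fold change was -0.05 (SE 0.08), or -0.10 without replicate 4. MT-CO3 had 6167 ± 386 CPM in WT and 5610 ± 420 CPM in MIEN1_KO (log2 fold change -0.14, SE 0.08, edgeR adjusted p = 0.165), and the adjusted p was below 0.05 without MIEN1_KO replicate 4.

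MT-CYB, the cytochrome b of complex III, varied least of the 13 mRNAs within MIEN1_KO, with a coefficient of variation of 1.36%. Its levels were 4700, 5078, 4878 and 5161 CPM in WT and 4833, 4968, 4835 and 4922 CPM in MIEN1_KO. The MIEN1_KO libraries all lay inside the WT range, and the log2 fold change was -0.02 with a 95% interval from -0.15 to 0.12.

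The ATP synthase has 2 mitochondrial subunits, MT-ATP8 and MT-ATP6. MT-ATP8 was counted at a far lower level than the rest, with 877, 970, 950 and 917 counts in WT and 842, 824, 785 and 741 in MIEN1_KO. In CPM these were 36.7, 37.8, 39.97 and 40.4 in WT and 35.1, 34.4, 36.3 and 34.3 in MIEN1_KO. The groups did not overlap, with MIEN1_KO below, as for 21.0% of all tested genes, though MIEN1_KO replicate 3 and WT replicate 1 nearly met. The exact permutation test gave p = 0.0286, the smallest possible, while edgeR gave a log2 fold change of -0.14 (SE 0.06) with an adjusted p of 0.0880. MT-ATP6 had 4910 ± 247 CPM in WT and 4846 ± 242 CPM in MIEN1_KO (log2 fold change -0.02, SE 0.07). The MT-ATP8 counts were 0.789% of the MT-ATP6 counts in WT and 0.725% in MIEN1_KO on average, with overlapping groups (exact permutation p = 0.143, 0.214 when adjusted).

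**Figure D4:**
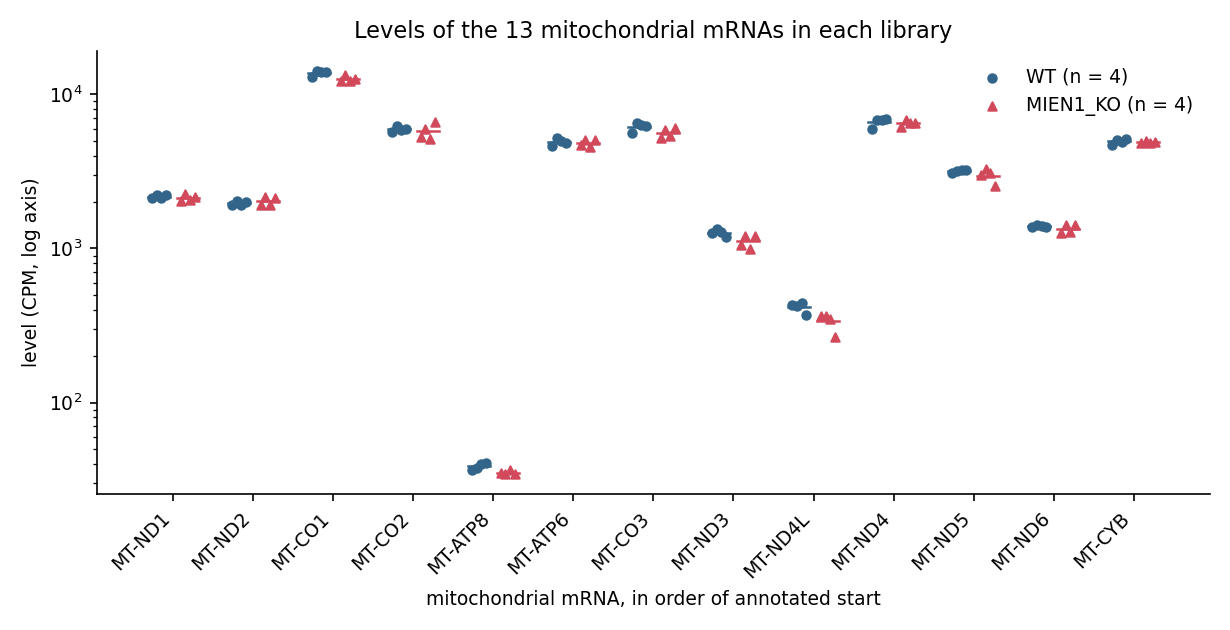
Level of each mitochondrial mRNA in each library, in CPM on a log axis, with WT as circles, MIEN1_KO as triangles and a line at each group's mean (n = 4). Within a gene the groups lie close together and are apart only for MT-ND4L and MT-ATP8, and heights should not be compared between genes, since CPM is not divided by length.

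Divided by length, the order of the mRNAs was nearly the same in both groups. MT-CO1 led in WT with 8936 ± 369 CPM per kb, MT-CO2 had 8717 ± 340, MT-CO3 7866 ± 492 and MT-ATP6 7209 ± 363. MT-ND4 (4801 ± 327) and MT-CYB (4342 ± 181) came next, and MT-ND3 had 3659 ± 176 CPM per kb. MT-ND6 had 2654 ± 27.9, MT-ND1 2272 ± 61.8, MT-ND2 1887 ± 66.6, MT-ND5 1757 ± 40.2, MT-ND4L 1400 ± 103 and MT-ATP8 187 ± 8.48 CPM per kb (all SD, n = 4). Neighbours in this order whose WT ranges overlapped were MT-CO1 and MT-CO2, MT-CO3 and MT-ATP6, and MT-ND4 and MT-CYB. In MIEN1_KO, MT-CO2 was above MT-CO1 (8435 ± 996 and 8191 ± 357 CPM per kb) and the other places were the same. MT-ATP8 stood far below MT-ATP6 although both lie on the same transcript, and reads over the 46 shared bases can belong to either. The place of MT-ND6 in this order has the limit given above, since the strand setting is not known.

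In the main fit the mRNAs whose fold changes were lowest were also the shortest. MT-ATP8, MT-ND4L and MT-ND3 have 207, 297 and 346 bases, and their log2 fold changes of -0.14, -0.30 and -0.18 were the 3 lowest of the 13. MT-CO3 (-0.137, SE 0.08) and MT-CO1 (-0.126, SE 0.07) were close to MT-ATP8 (-0.144, SE 0.06). With the GC trend removed the 3 lowest were MT-ND4L (-0.07), MT-CO3 (0.03) and MT-CO1 (0.05), with MT-ND3 at 0.10 and MT-ATP8 at 0.14. Across the 13 mRNAs, which are counted in the same libraries, Spearman's rho was 0.467 between length and log2 fold change and 0.253 between GC content and log2 fold change. Among nuclear protein-coding genes with a longest transcript of up to 500 bases, of which only 11 were tested, the median log2 fold change was 0.09.

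Nuclear copies of mitochondrial genes can take reads from them, or give reads to them. The count files name 399 such copies, 386 of them of mRNA genes. In each library the mRNA copies held 0.834 to 0.954% as many counts as the mitochondrial mRNAs themselves. Only 4 copies had at least 50 counts in 4 libraries, and no other copy exceeded 15 counts in any library. MTATP6P1 (chr1:633696-634376, plus strand) is 98.5% identical to MT-ATP6 and had 363.1, 377.8, 369.7 and 357.5 CPM in WT and 378.6, 371.2, 366.8 and 416.4 CPM in MIEN1_KO (log2 fold change 0.06, edgeR adjusted p = 0.45). MTND2P28 (chr1:629640-630683, 98.4% identical to MT-ND2) and MTCO1P12 (chr1:631074-632616, 98.6% identical to MT-CO1) also differed by less than the spread between libraries.

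MTRNR2L12 (chr3:96617188-96618236, minus strand) is a nuclear gene whose 1049-base transcript is 95.04% identical to part of the mitochondrial 16S rRNA gene MT-RNR2. It was counted at 322.3, 384.2, 372.2 and 370.1 CPM in WT and at 299.5, 328.7, 297.4 and 299.6 CPM in MIEN1_KO. Only WT replicate 1 and MIEN1_KO replicate 2 met, and the log2 fold change was -0.24 (SE 0.07, edgeR adjusted p = 0.0136). Reads from stretches where MT-RNR2 and MTRNR2L12 are identical cannot be told apart, and the value stands for no measurement of the rRNA. The adjusted p was 0.0514 to 0.0653 without WT replicate 2, 3 or 4 or MIEN1_KO replicate 1, and the fold change was 0.03 with the GC trend removed.

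Nuclear genes that act on the mitochondrial genome and on the respiratory chain were looked at in 12 lists chosen by function. They held 316 tested genes, of which 59 rose and 49 fell, 34.2% against 41.7% of all tested genes, and their median log2 fold change was 0.01. Of all tested genes 21.0% rose and 20.7% fell, and the counts of each list below are to be read beside these shares. With upper-quartile factors the shares were 17.3% and 26.4%. With 1 library left out they were 17.2 to 24.4% and 15.3 to 21.5%. With the GC trend removed 106 were higher and 19 lower, beside 29.1% higher and 13.7% lower of all tested genes in that fit. That removal raised the median log2 fold change of all genes by 0.104. With each library's level kept, 19.6% of all tested genes were higher and 17.1% lower, and counts in that fit are also given below.

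Of the 9 tested genes of mitochondrial transcription 1 rose and 4 fell (55.6% called), with a median log2 fold change of -0.18. With the GC trend removed the counts were 1 and 1, and 1 and 2 with each library's level kept. POLRMT, the mitochondrial RNA polymerase, had 92.9 ± 7.98 CPM in WT and 139.5 ± 26.6 CPM in MIEN1_KO, a rise of 0.59 on the log2 scale (SE 0.11, edgeR adjusted p = 0.00115). TFAM, which packages the DNA and starts transcription, fell from 119.4 ± 5.05 to 99.7 ± 5.87 CPM (-0.26, adjusted p = 0.00607). TFB1M, an rRNA methyltransferase related to the transcription factor TFB2M, fell from 9.73 ± 0.793 to 6.51 ± 0.673 CPM (-0.58, adjusted p = 0.000562). MTERF2 (-0.53) and MTERF1 (-0.31), of the family of termination factors, also fell. With the GC trend removed POLRMT and TFB1M were still called, whereas TFAM (0.03), MTERF1 (0.00) and MTERF2 (-0.32) were not, and MTERF1 was also not called without WT replicate 2.

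Of 33 genes of RNA processing and stability 11 rose and 4 fell (45.5% called, median 0.07). The counts were 7 and 5 with upper-quartile factors and 8 and 2 without WT replicate 3. With the GC trend removed they were 19 and 1, and 12 and 1 with each library's level kept. HSD17B10, a subunit of the RNase P that cuts tRNAs at their 5′ ends, rose by 0.45 on the log2 scale, from 91.3 ± 4.76 to 124.8 ± 17.5 CPM (edgeR adjusted p = 0.00134). MTO1, which modifies tRNAs, fell from 20.9 ± 1.58 to 15.0 ± 0.968 CPM (-0.48, adjusted p = 0.000461). FASTKD1 (-0.40), PTCD2 (-0.35) and PNPT1 (-0.22), the last a polynucleotide phosphorylase, fell too, but with the GC trend removed none of these 3 was called. PTCD2 was also not called without WT replicate 3, nor PNPT1 without WT replicate 2 or 3 or MIEN1_KO replicate 1 or 3. Of 21 genes of mtDNA maintenance 6 rose and 5 fell (52.4% called, median 0.05). With the GC trend removed the counts were 10 and 2, and 4 and 3 with each library's level kept. POLG, the catalytic subunit of the DNA polymerase, rose from 109.0 ± 5.66 to 139.5 ± 8.62 CPM (0.36, adjusted p = 0.000954), and RRM2B, a ribonucleotide reductase subunit, fell from 26.1 ± 1.35 to 17.2 ± 2.31 CPM (-0.60, adjusted p = 0.000233). ATAD3A rose by 0.49. DNA2 (-0.36), SLC25A36 (-0.44), MGME1 (-0.20) and PRIMPOL (-0.35) made up the rest of those that fell, and none of these 4 was called with the GC trend removed. MGME1 and PRIMPOL were also lost without WT replicate 2 or 3 or MIEN1_KO replicate 1 or 3, and MGME1 without WT replicate 1 or 4 or with no filter on low counts as well. PRIMPOL was not called by limma-voom (adjusted p = 0.0511).

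Of 78 mitochondrial ribosomal proteins 18 rose and 7 fell (32.1% called), with a median of 0.10. With upper-quartile factors the split turned, to 10 higher and 11 lower. The counts were 21 and 7 with DESeq2 size factors and 18 and 11 without MIEN1_KO replicate 2. With the GC trend removed they were 33 and 3, and 21 and 4 with each library's level kept. MRPL4 rose from 41.5 ± 3.14 to 61.3 ± 12.8 CPM (log2 fold change 0.56), MRPS2 rose from 41.8 ± 1.52 to 58.0 ± 9.40 CPM (0.47), and MRPS28 fell from 7.40 ± 0.571 to 4.47 ± 0.679 CPM (-0.73). Of 37 translation factors and tRNA synthetases 8 rose and 8 fell (43.2% called), against 5 higher and 11 lower with upper-quartile factors. With the GC trend removed the counts were 16 and 3, and 6 and 3 with each library's level kept. RARS2, the arginyl-tRNA synthetase, fell by 0.65 on the log2 scale, MTRF1L, a release factor, fell by 0.45, and AARS2, the alanyl-tRNA synthetase, rose by 0.37.

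Nuclear subunits were compared complex by complex with their mitochondrial partners. Of 36 nuclear subunits of complex I 13.9% were called. Of these 2 rose, NDUFS8 (log2 fold change 0.50) and NDUFS7 (0.49), and 3 fell, NDUFB5 (-0.28), NDUFA5 (-0.26) and NDUFS1 (-0.19). With the GC trend removed those 3 were not called. In that fit 3 of the 36 were higher and 2 lower, against 1 and 2 with each library's level kept. Without MIEN1_KO replicate 4 there were 8 lower and with upper-quartile factors 6, while without WT replicate 1, 2 or 3 or MIEN1_KO replicate 1 or 3 there was 1. NDUFS1 was called in none of the fits that left out a library except the one without MIEN1_KO replicate 2, nor with DESeq2 size factors (adjusted p = 0.0519) or no filter on low counts (0.0721), and NDUFA5 was lost without WT replicate 1, 2 or 3 or MIEN1_KO replicate 1 or 3. Of 9 nuclear subunits of complex III, 0 rose (1 at an unadjusted p below 0.05, and 0 by DESeq2 or limma-voom) and 3 fell. The called share in edgeR was 33.3%. UQCRFS1, the Rieske iron-sulphur protein, fell from 111.1 ± 3.13 to 84.9 ± 6.60 CPM (-0.39), UQCRB fell from 112.3 ± 7.21 to 81.2 ± 11.7 CPM (-0.47), and UQCRC2 fell by 0.30 on the log2 scale. UQCRB and UQCRC2 were not called with the GC trend removed. The number lower was 2 in that fit, 3 with each library's level kept and 5 without MIEN1_KO replicate 4.

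Complex IV had the lowest median of the nuclear subunits, -0.20 over 13 genes, of which 0 rose and 5 fell in edgeR, DESeq2 and limma-voom alike, with 0 and 5 also at an unadjusted p below 0.05. The called share in edgeR was 38.5%. The number lower was 8 without MIEN1_KO replicate 4 or with upper-quartile factors, and 3 with the GC trend removed or without WT replicate 2 or 3 or MIEN1_KO replicate 1 or 3. It was 4 with the GC trend removed and each library's level kept. COX7A2 fell from 120.8 ± 8.88 to 72.1 ± 11.8 CPM (log2 fold change -0.74, edgeR adjusted p = 8.2e-05), and COX6C fell from 63.9 ± 3.54 to 43.8 ± 8.03 CPM (-0.55). COX7C (-0.37), COX7B (-0.30) and COX7A2L (-0.26) also fell. With the GC trend removed COX7A2 and COX6C were still called lower and COX7C, COX7B and COX7A2L were not called. COX7B and COX7A2L were also lost without WT replicate 2 or 3 or MIEN1_KO replicate 1 or 3. Of 18 subunits of complex V 2 rose and 0 fell (11.1% called), in all 3 tools and at an unadjusted p below 0.05. Other settings gave lower calls as well, 3 without MIEN1_KO replicate 4, 1 without MIEN1_KO replicate 2 and 1 with upper-quartile factors. With the GC trend removed 4 were higher, and 2 with each library's level kept. ATP5F1D rose from 102.8 ± 5.05 to 160.5 ± 42.5 CPM (0.64), and ATP5MC1 from 76.7 ± 1.76 to 92.2 ± 14.8 CPM (0.26, adjusted p = 0.0403). ATP5MC1 was lost without any 1 of the 4 WT libraries and without MIEN1_KO replicate 2, with upper-quartile factors (adjusted p = 0.0909) and with the stricter filter on counts (0.0535). Complex II has no mitochondrial subunit, and of its 4 subunits SDHD alone was called (-0.23), though not with the GC trend removed or without WT replicate 2 or 3 or MIEN1_KO replicate 1 or 3.

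Of 47 assembly factors of the complexes 7 rose and 7 fell (29.8% called, median 0.00), against 6 higher and 12 lower with upper-quartile factors. With the GC trend removed the counts were 14 and 2, and 9 and 4 with each library's level kept. Without WT replicate 1 or 2 or MIEN1_KO replicate 1 there were 4 lower. NDUFAF6, needed for complex I, fell from 10.9 ± 1.42 to 6.37 ± 0.552 CPM (log2 fold change -0.77). BCS1L, which inserts the Rieske protein into complex III, rose from 37.8 ± 0.481 to 48.7 ± 2.76 CPM (0.37), and SCO2, a copper chaperone of complex IV, rose from 18.3 ± 1.89 to 26.5 ± 3.34 CPM (0.53). Among 12 tested regulators of mitochondrial biogenesis 4 rose and 2 fell (50.0% called). With the GC trend removed the counts were 5 and 0, and 3 and 1 with each library's level kept. PPRC1, a coactivator related to PGC-1, rose from 105.8 ± 4.36 to 147.6 ± 5.76 CPM (0.48), and the mitochondrial deacetylase SIRT3 rose from 13.5 ± 0.946 to 20.6 ± 2.68 CPM (0.61). ESRRA (0.39) and MYC (0.21) also rose, PRKAA1, a catalytic subunit of AMPK, fell by 0.37 on the log2 scale, and GABPA fell by 0.27. PRKAA1, GABPA and ESRRA were not called with the GC trend removed, ESRRA and MYC were also lost without WT replicate 2, MYC without WT replicate 3 and with upper-quartile factors, and GABPA without each library in turn except MIEN1_KO replicate 1.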

How the data were processed

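Poly-A RNA was measured in 4 WT and 4 MIEN1_KO libraries of HT-29. The authors deposited raw counts per gene for each library. Per the submitters' processing notes, TopHat2 2.0.9, HTSeq 0.6.1 and GRCh38 were used. Not given in the sources used here are the annotation release, strand setting, counting mode and treatment of multi-mapped reads. The labels name no molecular identifiers, so a count was not taken as a count of molecules. The labels call the replicates independent biological replicates.

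Of 48162 identifiers 45342 were found in GENCODE 29, which gave symbols, positions and sequences. Genes were tested with edgeR 4.0.16 (default filterByExpr, TMM factors, robust quasi-likelihood F test between the groups, with Benjamini-Hochberg adjustment over all 14228 tested genes and a threshold of 0.05), and the SE is the one implied by the F statistic. Log2 CPM for the exact permutation test (70 assignments) used no prior count. A prior count of 2 was used for the correlations between replicates and for the GC correction. The tests were tried on simulated counts. Alternatives used DESeq2 1.42.0 and limma 3.58.1, other scalings and filters, a GC correction (loess, span 0.5) and each library left out.

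The genes, lists and tests were chosen with earlier results of these data known. Named were MIEN1, every mitochondrial mRNA, nuclear copies with at least 50 counts in 4 libraries and, from each list, the 3 genes with the smallest p and any of 5 or fewer called in 1 direction. Scripts used R 4.3.3, Python 3.11.15 and, in Python, scipy 1.17.1, numpy 2.4.6, pandas 2.3.3 and matplotlib 3.10.9.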

Additional observations from a re-analysis of the deposited data

Results flagged for a closer look

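Among groups of 4 libraries, 9 values had 1 library farther from the rest than Dixon's 95% limit (the gap to the next library over the whole range of the 4). Many levels, shares and ratios were screened in each group, several of them of the same genes. Chance alone puts about 1 in 20 groups past that limit. The 9 were not compared with the number expected by chance, and the cause was tested for none of them. MIEN1_KO replicate 4 was the lone library in 4: MT-ND4L at 266.1 CPM beside 349.9 to 367.0, MT-ND5 at 4.91% of the mitochondrial mRNA counts beside 6.20 to 6.39%, MT-CO1 at 24.5% of them beside 25.3 to 25.4%, and MT-ND6 at 55.6% of MT-ND5 counts beside 41.4 to 43.5%. WT replicate 1 was the lone library in 3: MT-CO1 at 12940 CPM beside 13983 to 14198, MT-ND4 at 5943 CPM beside 6785 to 6877, and the nuclear copy MTCO1P12 at 31.7 CPM beside 18.1 to 19.7. In MIEN1_KO replicate 2 the mitochondrial mRNAs took 5.28% of all counts beside 4.77 to 4.80%, and MTRNR2L12 had 328.7 CPM beside 297.4 to 299.6.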

How the results depend on the processing

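DESeq2 size factors, scaling on the nuclear genes alone, both filters, the DESeq2 Wald test, limma-voom, the replicate block and nuclear copies added each left 0 mitochondrial mRNAs higher and MT-ND4L alone lower. With upper-quartile factors 5 mitochondrial mRNAs were lower (MT-ATP8, MT-CO1, MT-CO3, MT-ND3 and MT-ND4L), 39 genes of the nuclear lists were higher, 39.7% of all calls were higher (50.2% with TMM factors), and MT-ND2 was at -0.011 and MTND2P28 at -0.056. In that fit 26.4% of all tested genes were lower, and the median log2 fold change of all genes was -0.0787. With the GC trend removed 5 mitochondrial mRNAs were higher and 0 lower, 106 genes of the lists were higher and 19 lower, and 68% of all calls were higher. The log2 fold changes that turned were then MT-ATP6 0.20, MT-ATP8 0.14, MT-CO1 0.050, MT-CO2 0.13, MT-CO3 0.032, MT-CYB 0.16, MT-ND1 0.11, MT-ND3 0.10, MT-ND4 0.20, MT-ND5 0.10, MT-ND6 0.19, MTRNR2L12 0.031, MTCO1P12 0.0060, TFAM 0.034, MTERF1 0.0050, PNPT1 0.047, NDUFA5 0.064, NDUFS1 0.061, ATP5F1C 0.078, SDHD 0.031, SDHC 0.14 and GABPA 0.039. With the library's level kept, an alternative chosen after seeing the data like every test of a ratio or nuclear copy, 1 mitochondrial mRNA was higher and 0 lower, 27 list genes were lower, and 36.6% of all genes were called. Turned values were MT-ATP6 0.14, MT-ATP8 0.074, MT-CO2 0.067, MT-CYB 0.091, MT-ND1 0.046, MT-ND3 0.036, MT-ND4 0.13, MT-ND5 0.039, MT-ND6 0.13, ATP5F1C 0.013 and SDHC 0.072, and of 51 named nuclear genes 23 were no longer called, ATAD3A, AARS2, NDUFS7, SCO2 and MYC among them. The cause was not tested. MTND2P28, at 0.00, was at -0.00091 with no filter, -0.017 with the stricter filter (50 counts in 4 libraries), -0.00096 with limma-voom and -0.00053 with the replicate block, and MT-ATP6 was at 0.00025 with nuclear copies added.

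With 1 library left out, 0 to 3 mitochondrial mRNAs were lower and 0 higher, 42 to 71 list genes were higher and 34 to 66 lower. In these fits 17.2 to 24.4% of all tested genes were higher and 15.3 to 21.5% lower. The log2 fold change of MT-ATP6 ran from -0.038 to 0.021, of MT-CYB from -0.034 to 0.014, of MT-ND4 from -0.061 to 0.020, of MT-CO2 from -0.10 to 0.017, of MT-ND1 from -0.054 to 0.0092, of MTND2P28 from -0.056 to 0.078, of MTCO1P12 from -0.26 to 0.050, and of the MT-ND6 to MT-ND5 ratio from -0.045 to 0.098. The difference in the share of counts ran from -0.623 to -0.433 percentage points, and MIEN1 from -4.89 to -4.62.

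The deviations of libraries with the same replicate number had r = -0.076, 0.203, 0.069 and 0.00924 for numbers 1 to 4. Pairs with different numbers had r from -0.164 to 0.254. Such correlations cannot decide whether the numbers pair the samples by design, and the main fit used no pairing. With the replicate block 3002 genes were higher and 2982 lower, MT-ND4L was the only mitochondrial mRNA called, and PRIMPOL alone of the named nuclear genes lost its call. The results planned for rRNAs and tRNAs could not be computed. Depth limits the mitochondrial mRNAs little, since only MT-ATP8 had under 1000 counts in a library.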
